A study of Mus musculus with 78 samples.

Results

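The genes described here encode the chains of collagens and laminins. They were taken by symbol from the StringTie gene tables, as every gene named Col, a number, a and a number, or Lama, Lamb or Lamc with a number, which gave 44 collagen genes and 11 laminin genes, 55 of the 54446 genes listed. All 55 also had an entry in the TT-SLAM-seq table. They lie on 17 chromosomes of the mouse genome (mm10) and span from 7105 to 639723 bases, introns included.

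Collagens and laminins are secreted proteins that assemble outside the cell. A laminin is a cross-shaped trimer of an alpha, a beta and a gamma chain, and laminin networks tied to a network of type IV collagen form the basement membrane, the thin sheet under epithelia and the first extracellular matrix that the mouse embryo makes. Fibrillar collagens (types I, II, III, V, XI and others) are triple helices that pack into the fibrils of connective tissue, while fibril-associated, network-forming and membrane-spanning collagens decorate fibrils, build sheets or anchor cells.

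The study followed mouse embryonic stem cells (mESCs, line V6.5) in which TRIM28, a corepressor that silences endogenous retroviruses (ERVs), carries an FKBP degron tag and is degraded by dTAG-13. Nascent RNA was measured by TT-SLAM-seq, which isolates and sequences RNA labelled with 4-thiouridine in a short pulse, in 12 libraries, 3 with the vehicle DMSO and 3 at each of 2 h, 6 h and 24 h with 500 nM dTAG-13. Polyadenylated RNA was sequenced in 15 libraries of the same line, 3 with DMSO and 3 at each of 4 times (2 h, 6 h, 24 h, 96 h), in 3 libraries of untagged parental V6.5 mESCs and in 3 of neural progenitor cells (NPCs) in DMSO. A derivative line carrying doxycycline (Dox) inducible short hairpin RNAs against ERVs (the shERV line) had 9 libraries of total RNA, 3 each in DMSO, after 24 h of dTAG-13 and after dTAG-13 with Dox, and ChIP-seq compared DMSO with 24 h of dTAG-13, in 3 libraries per group for H3K27Ac and H3K9me3 and in 2 for RNAPII and MED23.

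All groups other than the parental line carry the tag, and the tagged line was grown from picked colonies, so that it is a clone. The labels of the 3 shERV groups all mention Dox at 2 µg/mL before treatment, whereas in the methods Dox induces the hairpins and belongs to a single arm. The group names were followed here. Time course cells were taken off feeder fibroblasts before use, while the labels of the parental and shERV libraries name growth on CD1 feeder fibroblasts and no such step, although the methods describe feeder removal for mESCs before RNA-seq in general, and NPCs were kept on dishes coated with laminin. dTAG-13 removes the protein, so Trim28 RNA does not check the treatment. The pluripotency markers were present in the mESCs: their summed level in DMSO was 5680 to 6123 TPM (transcript level scaled by length and by the library total) in the time course line and 455.7 to 472.7 TPM in NPCs. Relative sequencing depth of the RNA-seq libraries ran from 0.327 of the median, in 24 h replicate 1, to 1.74. In TT-SLAM-seq the authors' FPKM could be turned back into whole reads, and the totals behind the scaling ran from 6481999 reads in 24 h replicate 3 to 24266191 in 24 h replicate 1.

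With DMSO the mESCs of the time course made RNA for the chains of a basement membrane. In DMSO 10 of the 55 genes averaged 10 TPM or more and 26 averaged below 1 TPM. The highest was Col18a1, a multiplexin collagen of basement membranes, at 306, 309 and 297 TPM, followed by the laminin chains Lamc1, Lama5 and Lamb1 and by Col4a1 and Col4a2, the main type IV collagen chains. Col18a1 alone was 64.9% ± 0.402 (SD, n = 3) of the summed collagen TPM. 12 genes stayed below 1 TPM in every RNA-seq library, among them Lama2, Lamc3, Col4a3, Col4a4, Col9a1 and Col10a1.

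The 3 chains of laminin-111, the laminin of the early embryo, went different ways in the time course. Lama1 (alpha 1; ENSMUSG00000032796.8, chromosome 17, 67697259 to 67822647) measured 14.3, 12.7 and 11.1 TPM in DMSO, then 11.2, 10.6 and 10.3 at 2 h, 9.20, 11.2 and 8.999 after 6 h, 7.53, 7.23 and 8.06 at 24 h and finally 4.70, 4.41 and 4.801 at 96 h. Every 24 h library was below every DMSO library, and every 96 h library below every 24 h library. Lama1 fell 2.55-fold at 96 h (log2 difference -1.35, SE 0.095, adjusted p = 6.02e-09), whereas at 24 h its log2 difference of -0.69 (SE 0.095, adjusted p = 1.66e-05) was less than 2-fold. These and all later folds of RNA-seq are on the log2(TPM + 0.5) scale, which understates changes of low genes, from limma across 17922 tested genes with Benjamini-Hochberg adjustment, and a gene counted as changed where it differed by more than 2-fold with an adjusted p under 0.05.

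Lamb1 (beta 1; ENSMUSG00000002900.16, chromosome 12, 31265234 to 31329644) measured 96.0, 93.2 and 87.1 TPM in DMSO, then 89.8, 87.4 and 86.2 at 2 h, 74.5, 79.5 and 76.9 after 6 h, 113, 110.8 and 112 at 24 h and finally 243, 232 and 234 at 96 h. Lamc1 (gamma 1; ENSMUSG00000026478.14, chromosome 1, 153218922 to 153332786) measured 132, 134 and 122 TPM in DMSO, then 118, 110.8 and 112 at 2 h, 105, 105 and 102 after 6 h, 128, 131 and 131 at 24 h and finally 274, 259 and 256 at 96 h. Both were lowest at 6 h and highest at 96 h, with no overlap between DMSO and 96 h. Lamb1 rose 2.56-fold (log2 1.36, SE 0.039, adjusted p = 2.87e-13) and Lamc1 2.03-fold (log2 1.02, SE 0.040, adjusted p = 8.62e-12) at 96 h. The rise of Lamc1 lies at the 2-fold limit and was below it after each library was centred on its median (0.74), without DMSO replicate 3 (0.98) and without 96 h replicate 1 (0.99).

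Col4a1 (ENSMUSG00000031502.11, chromosome 8, 11198423 to 11312826, minus strand) and Col4a2 (ENSMUSG00000031503.13, chromosome 8, 11312805 to 11449287, plus strand) encode the chains of the commonest type IV collagen trimer and are read in opposite directions from starts 21 bases apart. Col4a1 measured 52.7, 51.3 and 48.6 TPM in DMSO, then 46.7, 47.1 and 48.4 at 2 h, 41.5, 46.8 and 44.1 after 6 h, 46.5, 44.5 and 51.3 at 24 h and finally 262, 259.9 and 274 at 96 h. Col4a2 measured 34.1, 34.5 and 31.6 TPM in DMSO, then 30.5, 29.3 and 31.0 at 2 h, 27.6, 31.2 and 30.4 after 6 h, 35.7, 34.9 and 37.9 at 24 h and finally 217, 213 and 223 at 96 h. Neither differed from DMSO by 2-fold up to 24 h, and both were several times higher in every 96 h library. At 96 h Col4a1 rose 5.18-fold (log2 2.37, SE 0.054, adjusted p = 3.4e-14) and Col4a2 6.44-fold (log2 2.69, SE 0.051, adjusted p = 6.1e-15). The ratio of Col4a1 to Col4a2 was 1.52 ± 0.0312 (SD, n = 3) in DMSO, then 1.31 ± 0.0394 at 24 h and 1.22 ± 0.009 at 96 h.

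**Figure D1:**
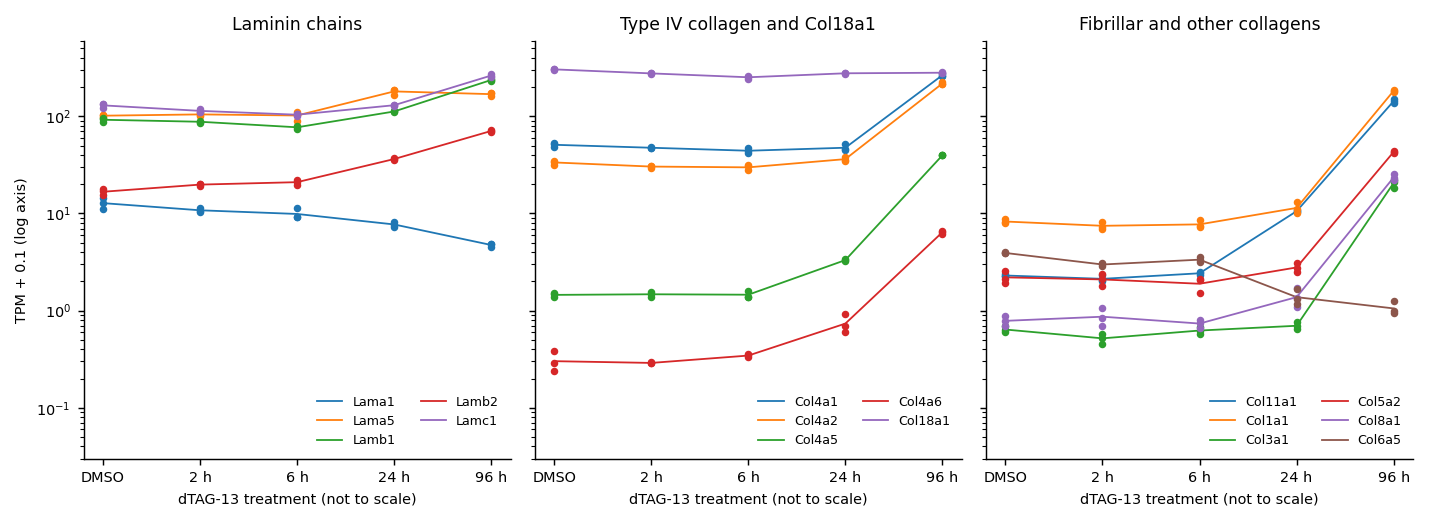
TPM plus 0.1 on a log axis for chosen laminin and collagen genes at 0 h (DMSO) and at 2 h, 6 h, 24 h and 96 h with dTAG-13, with 1 point per library and a line through the means of 3 libraries. Most curves are level until 6 h or 24 h and climb at 96 h, Lama1 and Col6a5 descend, and Col18a1 stays between 243 and 309 TPM.

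No collagen or laminin gene passed both thresholds at 2 h or at 6 h of dTAG-13, where the share of all tested genes called changed was 0.374% and 0.965%. By adjusted p alone (limma) 1 of the 38 tested genes was higher and 3 were lower at 2 h, beside 8.25% and 7.02% of all tested genes, with 8 at an unadjusted p below 0.05 beside 28.7% of all tested genes. At 6 h 5 were higher and 9 lower, beside 18.4% and 15.5%, with 16 at an unadjusted p below 0.05 beside 43.3%. At 6 h Lamc1 (log2 -0.32, SE 0.040, adjusted p = 9.08e-05), Lamb1 (-0.26, SE 0.039, adjusted p = 0.000308), Col4a1 (-0.20, SE 0.054, adjusted p = 0.0113) and Col4a2 (-0.17, SE 0.051, adjusted p = 0.0215) were all slightly lower than in DMSO.

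At 24 h 8 of the 38 tested genes had changed, 7 higher and 1 lower, or 21.1%, beside 12.2% of all tested genes (10.1% higher and 2.01% lower). The median log2 difference was 0.46 over the 38 genes and 0.13 over all tested genes, and after every library was centred on its median 4 genes were called, 3 higher and 1 lower, or 10.5%, beside 10.1% of all tested genes (4.94% higher, 5.13% lower), so that the members were then called about as often as all genes. The largest rise was that of Col11a1, a minor fibrillar collagen that sets fibril width in cartilage and other tissues, with 2.30, 2.15 and 2.15 TPM in DMSO and 10.2, 10.4 and 10.7 TPM at 24 h. It rose 4.06-fold (log2 2.02, SE 0.062, adjusted p = 1.47e-11). Col26a1, a poorly known collagen of testis and ovary, went from 1.01, 0.929 and 1.05 to 4.17, 4.08 and 3.66 TPM, and rose 2.98-fold (log2 1.57, SE 0.118, adjusted p = 4.41e-08). These 2 genes were several times higher in all 24 h libraries than in any DMSO library.

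Col9a3, a chain of the fibril-associated type IX collagen of cartilage, measured 3.19, 2.77 and 3.21 TPM in DMSO and 8.86, 9.56 and 8.92 TPM at 24 h, a rise of 2.71-fold (log2 1.44, SE 0.119, adjusted p = 1.17e-07). Its 96 h libraries, at 2.94, 2.68 and 2.19 TPM, overlapped DMSO. Lamb2, the beta 2 laminin chain of synapses and kidney filters, measured 16.9, 15.4 and 17.6 TPM in DMSO and 35.2, 36.0 and 37.5 TPM at 24 h, a rise of 2.15-fold (log2 1.10, SE 0.052, adjusted p = 6.75e-10) that passed 2-fold no longer after centring (0.81). Col6a2, Col4a5 and Col13a1 rose 2.04-fold, 2.01-fold and 2.00-fold, at the limit, and were under 2-fold with centred libraries (0.74, 0.71 and 0.71). Col13a1, a collagen that spans the membrane at cell contacts, was at 3.04, 3.38 and 3.19 TPM at 24 h and, at 96 h, at 0.736, 1.01 and 0.575 TPM, below its DMSO level of 1.42, 1.44 and 1.19 TPM.

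Col6a5, a long alpha chain of the beaded-filament type VI collagen, was the 1 gene that fell at 24 h. It measured 3.79, 3.78 and 3.90 TPM in DMSO, then 2.96, 2.90 and 2.79 at 2 h, 3.10, 3.19 and 3.45 after 6 h, 1.07, 1.56 and 1.20 at 24 h and finally 0.834, 0.884 and 1.14 at 96 h. Every treated library was below every DMSO library. It fell 2.45-fold at 24 h (log2 -1.29, SE 0.111, adjusted p = 1.65e-07) and 2.99-fold at 96 h (log2 -1.58, SE 0.111, adjusted p = 6.04e-09).

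Lama5, the alpha 5 chain of the laminins that stem cells adhere to, did not pass 2-fold and is given because it made up most of the alpha chain RNA. It measured 102, 98.9 and 103 TPM in DMSO, then 109, 103 and 101 at 2 h, 90.2, 112 and 104 after 6 h, 166, 187 and 188 at 24 h and finally 173, 161 and 172 at 96 h. The 24 h and 96 h libraries were all above the DMSO libraries, with log2 differences of 0.83 (SE 0.069, adjusted p = 1.18e-07) and 0.73 (SE 0.069, adjusted p = 1.5e-07).

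At 96 h 26 of the 38 tested genes had changed, 23 higher and 3 lower. Every time was compared with the same DMSO libraries, labelled 0 h, and no DMSO library was labelled 96 h. Time in culture and dTAG-13 therefore cannot be told apart. The DMSO and 96 h groups did not overlap in 36 of the 38, or 94.7%, beside 83.1% of all tested genes. The 26 genes called are 68.4% of the tested genes, beside 32.7% of all tested genes (20.3% higher, 12.4% lower). Of those called higher, Col3a1, Col4a6 and Col22a1 reached 1 TPM in the 96 h libraries alone. The filter thus let these genes be tested only because they were high at 96 h, so their calls say little. The median log2 difference was 1.21 over the 38 genes and 0.049 over all tested genes, and with centred libraries 22 genes were called, 18 higher and 4 lower, or 57.9%, beside 33.9% of all tested genes (15.1% higher, 18.8% lower). By TPM the collagen genes together went from 468.7 ± 9.08 (SD, n = 3) to 1485 ± 20.0 and the laminin genes from 382.1 ± 10.9 to 841.8 ± 23.1. All 55 genes together made up 0.0851% of the TPM total in DMSO and 0.233% at 96 h.

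Of 10 tested fibrillar collagen genes 6 rose at 96 h and none fell, beside 20.3% and 12.4% of all tested genes. Of the 6, Col3a1 passed the filter through its 96 h libraries alone, the group where it was high. Col11a1 reached 149.5, 137 and 143 TPM, a rise of 53.2-fold (log2 5.74, SE 0.062, adjusted p = 4.74e-17). Col1a1, the main chain of the type I collagen of bone and skin, measured 8.58, 7.85 and 8.06 TPM in DMSO, then 10.1, 10.9 and 12.9 TPM at 24 h and 188, 183 and 178 TPM at 96 h, a rise of 21.2-fold (log2 4.41, SE 0.086, adjusted p = 8.2e-15). For both genes the 96 h libraries lay far above all earlier ones. Its partner Col1a2 rose 16.7-fold, Col3a1, which forms fibrils with type I in soft tissue, 20.2-fold, and the type V chains Col5a2 and Col5a1, which start fibrils, 16.8-fold and 6.69-fold. The summed TPM of the fibrillar genes went from 44.3 ± 1.29 (SD, n = 3) to 569.5 ± 16.0.

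All 4 tested type IV genes rose, beside 20.3% of all tested genes higher. Col4a6 measured 0.186, 0.282 and 0.136 TPM in DMSO and 6.48, 6.08 and 6.37 TPM at 96 h. It passed the filter through its 96 h libraries alone, so it was tested only because it was high there. Beside Col4a1 and Col4a2, Col4a5 rose 21.7-fold (log2 4.44, SE 0.076, adjusted p = 2.51e-15), from 1.37, 1.28 and 1.41 TPM in DMSO over 3.29, 3.11 and 3.23 TPM at 24 h to 39.4, 39.5 and 39.8 TPM, and Col4a6, its head-to-head neighbour, rose 9.74-fold. Col4a5 and Col4a6 encode chains of the specialised type IV collagen of kidney, eye and smooth muscle membranes, and start 1309 bases apart on chromosome X. Col4a5 took up 1.58% ± 0.133 (SD, n = 3) of the type IV TPM in DMSO and 7.48% ± 0.149 at 96 h. The third pair, Col4a3 and Col4a4, did not pass the filter and was below 0.4 TPM in every library.

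Of the other collagens, Col8a1, a short-chain collagen of vessel walls, measured 0.775, 0.595 and 0.683 TPM in DMSO and 25.1, 23.0 and 22.0 TPM at 96 h, a rise of 20.2-fold (log2 4.33, SE 0.138, adjusted p = 9.2e-13). The fibril-associated genes Col12a1 and Col16a1 rose 11.0-fold and 6.51-fold, and Col22a1 2.00-fold, at the limit, and under it with centred libraries (0.73). Type VI was split, with Col6a1 rising 5.48-fold and Col6a2 2.37-fold (log2 0.97 with centred libraries, under 2-fold) while Col6a5 fell. Col26a1 rose 2.7-fold. Col17a1, the collagen of epithelial hemidesmosomes, went from 1.00, 0.870 and 0.730 to 0.145, 0.217 and 0.0928 TPM and fell 2.10-fold (log2 -1.07, SE 0.133, adjusted p = 3.49e-06), under 2-fold with a pseudocount of 1 (-0.70). Col18a1, the most abundant in DMSO, was at 284, 279 and 279.7 TPM at 96 h, just below DMSO (log2 -0.11, SE 0.031, adjusted p = 0.00358), and its share of the collagen TPM was then 18.9%.

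Of the other laminin chains Lamb2 rose 4.16-fold, Lamb3, a beta chain of epithelia, 2.26-fold, and Lama4, the alpha chain of vessel walls, 2.09-fold. With centred libraries Lamb3 (0.90) and Lama4 (0.79) were under 2-fold. Lama3, an alpha chain of epithelia, was lower with a log2 difference of -0.93 (SE 0.104, adjusted p = 1.13e-06), under 2-fold. All 3 tested beta genes were called higher, and of the 4 tested alpha genes 1 was called higher and 1 lower. Of all tested genes 20.3% were higher and 12.4% lower. Lama5 was above DMSO in every 96 h library, by less than 2-fold. These are few genes, and the chain types were not tested against each other.

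**Figure D2:**
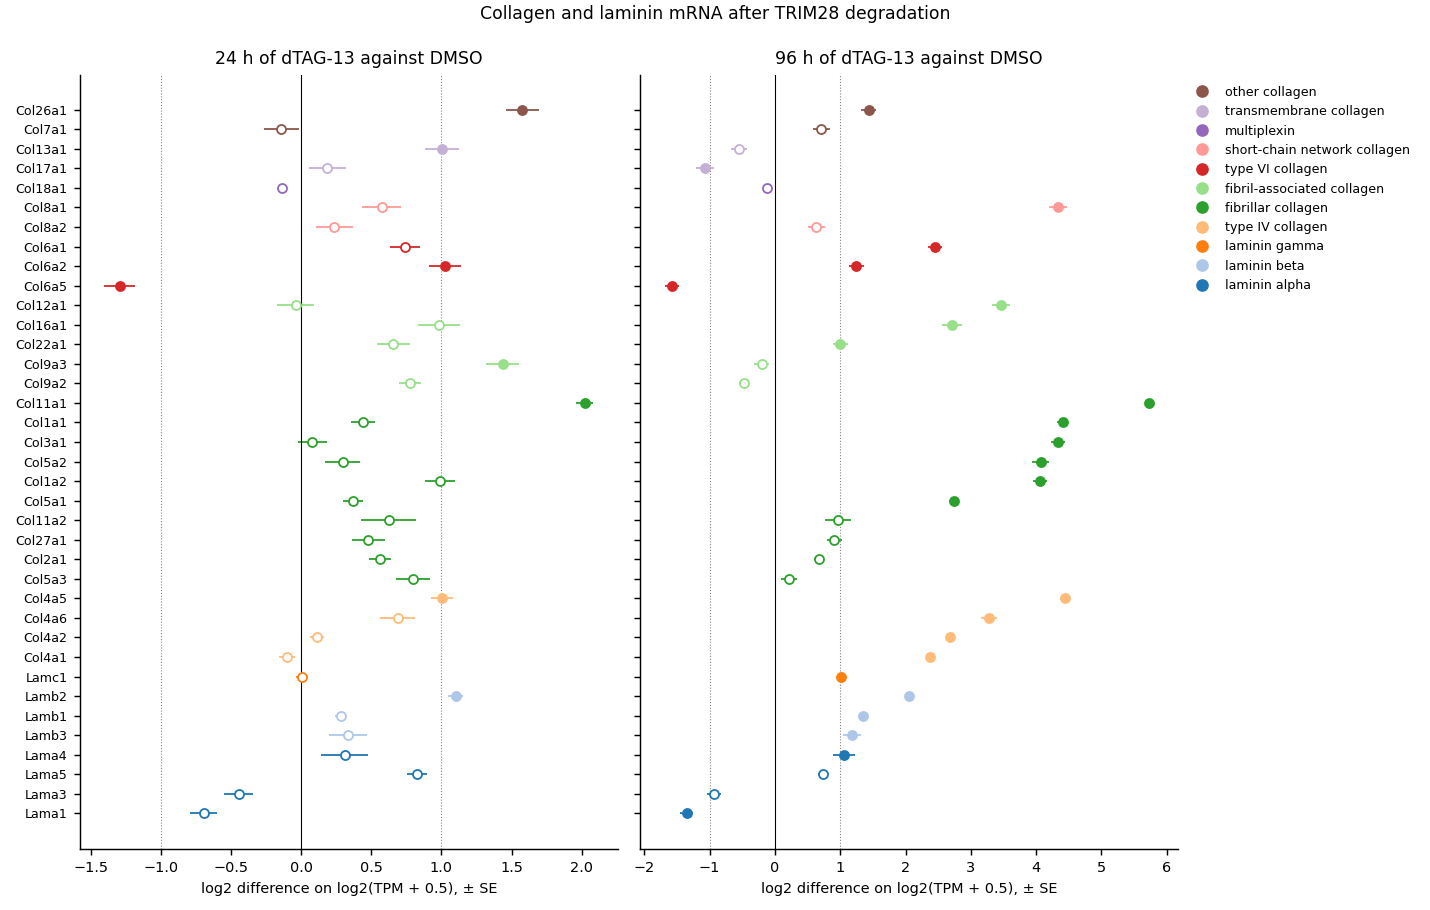
Log2 difference against DMSO with its SE for 37 of the 38 tested collagen and laminin genes after 24 h (left) and 96 h (right) of dTAG-13, coloured by family, with filled points for genes called changed and dotted lines at 2-fold. At 24 h 8 points are filled, with Col11a1 at 2.02 the farthest right, and at 96 h 25 are filled, from Col6a5 at -1.58 to Col11a1 at 5.74.

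Genes whose products process, bind or break down these proteins were counted from fixed lists, beside 20.3% of all tested genes higher and 12.4% lower at 96 h. Of 28 tested genes of collagen processing 20 rose at 96 h and none fell, among them Serpinh1, the collagen chaperone of the endoplasmic reticulum (134 to 1115 TPM, log2 3.05), Bmp1, the protease that trims procollagen (22.1 to 234 TPM, log2 3.38), and the crosslinking enzymes Loxl1 (log2 3.13) and Loxl2 (log2 2.52). Of 10 tested basement membrane partners 6 rose, with Nid1, which links laminin to type IV collagen, going from 22.6 to 121 TPM, and Smoc1 and Egfl6 fell. Of 13 tested receptors 11 rose, such as Itgb1, the beta subunit shared by most laminin and collagen integrins (195.5 to 713 TPM, log2 1.87), and of 8 tested genes of breakdown and its inhibitors 7 rose, such as Mmp14 (39.6 to 263 TPM, log2 2.72). At 24 h the same lists had 3 of 28, 1 of 10, 0 of 13 and 2 of 8 genes higher and none lower. Of all tested genes 10.1% were higher at that time. The breakdown list lay above that share, on 2 genes, and the other lists near or below it.

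Markers of other cell types were looked at beside these changes. The shares of all tested genes were again 20.3% higher and 12.4% lower at 96 h. Of 14 tested fibroblast markers 12 rose at 96 h and none fell, and their summed level was 518.8 to 532.5 TPM in DMSO and 4400 to 4585 TPM at 96 h, most of it from Tagln (300 to 2588 TPM), Acta2 (74.6 to 1170 TPM) and Ctgf (76.9 to 399.8 TPM). Mmp3 and Fap were at 0 in all libraries of both groups, and Lum averaged 0.398 TPM at 96 h and Dcn 1.34 TPM. Of 15 tested endoderm markers 8 rose, such as Sox17 (0.853 to 22.9 TPM) and Plat (3.40 to 36.5 TPM), and 1 fell, while Ttr and Afp were at 0, and the summed endoderm level was 482.4 to 532.8 TPM in DMSO, 593.1 to 770.7 TPM at 24 h and 383.2 to 401.9 TPM at 96 h. Most of this sum was Apoe, which many tissues make, at 475.6, 668.2 and 250.0 TPM, and without it the sum was 37.2 to 40.9, 42.4 to 44.6 and 138.5 to 147.7 TPM. Of 20 pluripotency markers 18 fell, with Pou5f1 going from 1162 to 102 TPM. At 24 h the fibroblast list had 3 of 14 higher with a summed level of 448.6 to 517.4 TPM, and 6 of 20 pluripotency markers had fallen, beside 10.1% of all tested genes higher and 2.01% lower. The part of these changes in the collagen and laminin result was not tested. In bulk RNA a change in the share of a cell type cannot be told apart from a change of RNA per cell.

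The deposited FPKM of TT-SLAM-seq are per whole gene length, introns included, so that long collagen genes have low values, and just 4 of the 55 genes passed the filter of 0.5 FPKM. None of these 4 (Col18a1, Lama5, Lamb1 and Lamc1) was called changed at 2 h, 6 h or 24 h, beside 0.225%, 0.569% and 3.4% of all tested genes. At an unadjusted p below 0.05, 3, 2 and 4 of them differed, beside 21.2%, 26.5% and 47.3% of all tested genes. At 24 h the log2 difference on the log2(FPKM + 0.5) scale was 0.62 for Lama5 (SE 0.148, adjusted p = 0.0083), 0.49 for Col18a1 (SE 0.087, adjusted p = 0.00183), 0.36 for Lamb1 (SE 0.100, adjusted p = 0.0186) and 0.19 for Lamc1 (SE 0.075, adjusted p = 0.0712), all from limma.

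The reads recovered from the FPKM let 44 of the 55 genes be tested, by limma with voom weights on reads for genes with at least 10 reads in at least 3 libraries, which is the measure used in the rest of the nascent RNA results. Levels are given as RPM, reads scaled to the total of each library. Col11a1 had 3.43, 2.94 and 3.77 RPM in DMSO, then 4.60, 4.37 and 4.40 at 2 h, 7.96, 7.77 and 12.0 after 6 h and 19.7, 30.1 and 21.1 at 24 h. The 6 h libraries were already all above DMSO, and the 24 h libraries above those of 6 h. Its nascent RNA rose 2.64-fold at 6 h (log2 1.40, SE 0.265, adjusted p = 0.000729) and 7.06-fold at 24 h (log2 2.82, SE 0.253, adjusted p = 4.9e-09). In mature RNA the 6 h libraries of Col11a1, at 2.32, 2.24 and 2.402 TPM, were close to DMSO. Col11a1 was the 1 member called at 6 h, when 1.97% of all tested genes were called (1.49% higher). The count was 3, with 1 higher and 2 lower, without DMSO replicate 3, 2 without DMSO replicate 1 or 6 h replicate 2, and 2 with the replicate block.

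At 24 h 11 of the 44 genes were called, 10 higher and 1 lower, or 25%, beside 18.3% of all tested genes (15.5% higher, 2.77% lower). The median of all tested genes was itself shifted by 0.378 (log2), and the members' median was 0.754. With each library centred on its median, a setting chosen after seeing the data, 9 genes were called, 6 higher and 3 lower, or 20.5%, beside 12.8% of all tested genes (6.67% higher, 6.12% lower). Col26a1 had 2.60, 2.22 and 1.40 RPM in DMSO and 12.2, 12.2 and 11.3 at 24 h, and rose 6.14-fold (log2 2.62, SE 0.260, adjusted p = 2.05e-08). Col6a2 had 6, 6 and 3 reads in DMSO and 52, 62 and 11 at 24 h (log2 2.32, SE 0.500, adjusted p = 0.000493), so that its size is poorly known. Col13a1 went from 11.4, 8.09 and 6.84 to 29.7, 29.7 and 25.1 RPM (log2 1.80, SE 0.167, adjusted p = 8.21e-09). All 3 genes were higher in every 24 h library than in any DMSO library, as in mature RNA. Col23a1, Col5a2, Col20a1, Col8a1, Col2a1 and Col4a6 rose by log2 1.65, 1.56, 1.30, 1.30, 1.28 and 1.27, and of these Col20a1, Col8a1, Col2a1 and Col4a6 fell short of 2-fold with centred libraries.

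Col6a5 had 10.3, 6.27 and 9.65 RPM in DMSO, then 5.03, 6.41 and 6.03 at 2 h, 16.5, 9.25 and 10.8 after 6 h and 2.31, 2.78 and 2.93 at 24 h. It fell at 24 h (log2 -1.66, SE 0.272, adjusted p = 2.3e-05) after libraries at 6 h that overlapped DMSO. Lama1 had 24.8, 23.0 and 24.1 RPM in DMSO, then 33.9, 33.1 and 31.1 at 2 h, 33.3, 28.1 and 27.1 after 6 h and 17.6, 21.6 and 18.7 at 24 h, higher than DMSO at first and lower at 24 h. Its difference at 24 h did not pass (log2 -0.29, SE 0.135, adjusted p = 0.0846), nor did that of Col4a1 (log2 0.17, SE 0.130, adjusted p = 0.305), which had 45.7, 43.2 and 43.6 RPM in DMSO, then 61.9, 51.3 and 42.0 at 2 h, 55.7, 51.5 and 52.3 after 6 h and 50.6, 48.1 and 47.1 at 24 h.

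Col4a2 had 37.2, 35.1 and 33.2 RPM in DMSO, then 47.4, 45.4 and 40.0 at 2 h, 42.3, 40.0 and 44.2 after 6 h and 55.9, 53.5 and 55.2 at 24 h (log2 0.67, SE 0.117, adjusted p = 4.71e-05). Lamb1 had 81.0, 79.4 and 94.6 RPM with DMSO, 132, 134 and 103 at 2 h, 116, 94.4 and 108 after 6 h and 110, 129 and 114 at 24 h. Lamc1 had 159, 150 and 156 RPM with DMSO, 217, 205 and 168 at 2 h, 187, 166 and 175 after 6 h and 180, 192 and 184 at 24 h. These 3 genes were higher than DMSO in every 24 h library, by less than 2-fold, and with centred FPKM the 24 h difference of Lamc1 turned to -0.051.

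At 2 h 4 of the 44 genes were called, all lower, beside 2.78% of all tested genes (2.47% lower). They were Col24a1, Lamb3, Lama4 and Col25a1, a membrane-spanning collagen of neurons. All 4 are low, with at most 5.44 RPM in any DMSO library. Col25a1 went from 4.66, 5.08 and 5.44 to 2.88, 1.48 and 2.41 RPM (log2 -1.24, SE 0.264, adjusted p = 0.0043). With centred libraries 1 of the 4 was left, Col24a1, which had 14, 26 and 11 reads in DMSO, beside 1.07% of all tested genes called lower. The count was 2 without DMSO replicate 1 or 2 and 1 without 2 h replicate 1 or 2.

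**Figure D3:**
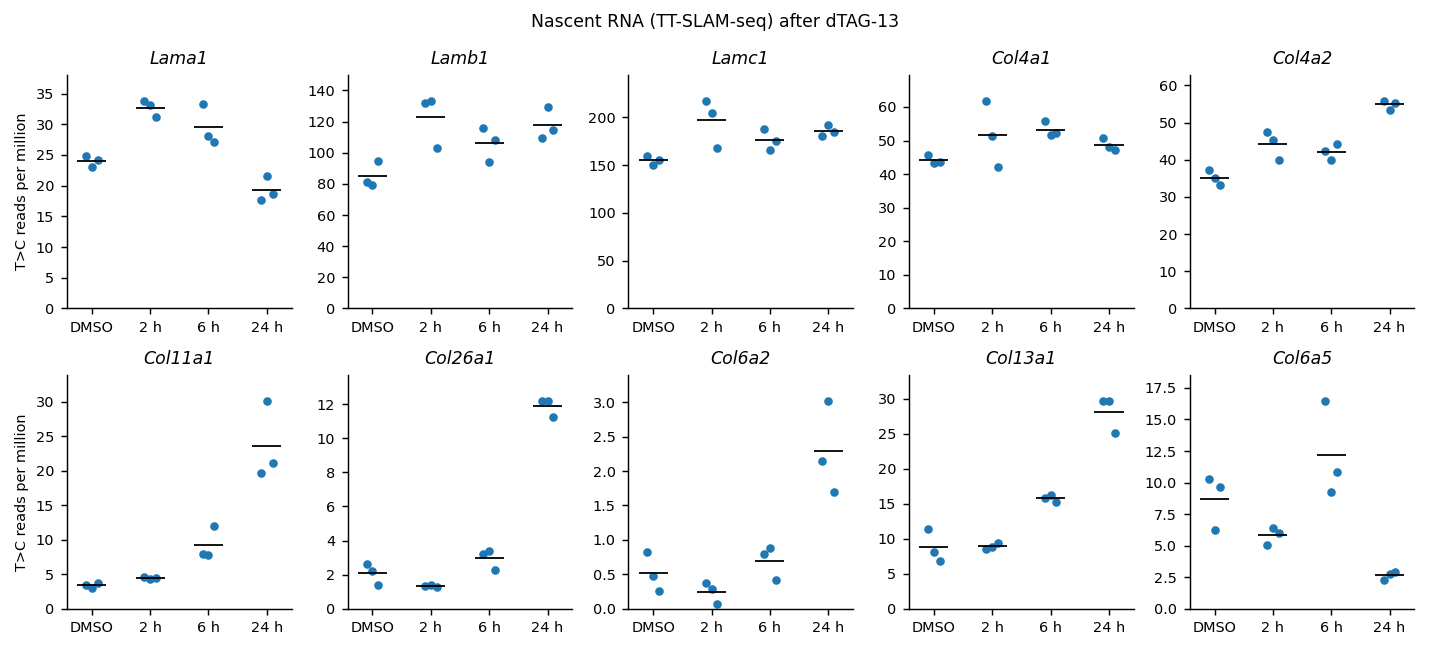
Counted T>C RPM in TT-SLAM-seq for 10 genes with DMSO or with dTAG-13 for 2 h, 6 h or 24 h, with 1 point per library and a bar at the mean, each panel on its own axis from 0. Col11a1, Col26a1, Col6a2 and Col13a1 are highest at 24 h, Col6a5 is lowest at 24 h, and the laminin-111 and type IV genes move by less than 2-fold.

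In the shERV line 1 of 31 tested genes was called after 24 h of dTAG-13 against DMSO, beside 3.82% of all tested genes (2.38% higher, 1.44% lower), and it was Lama1. Lama1 measured 5.47, 6.26 and 6.10 TPM in DMSO, then 2.59, 2.57 and 2.42 with dTAG-13 and 6.16, 5.93 and 6.09 with dTAG-13 and Dox. The dTAG-13 libraries were low and the other 6 overlapped. Lama1 fell 2.13-fold with dTAG-13 (log2 -1.09, SE 0.078, adjusted p = 6.01e-07) and was 2.17-fold higher with Dox added than with dTAG-13 alone (log2 1.12, SE 0.078, adjusted p = 5.8e-07), the 1 call of that comparison, where 3.45% of all tested genes were called (1.49% higher, 1.96% lower). With a pseudocount of 1 the fall was -0.98.

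By adjusted p alone 22 of the 31 genes were higher and 4 lower with dTAG-13 than in DMSO, or 71% and 12.9%, beside 41.2% and 12.8% of all tested genes. With Dox added 5 were higher and 20 lower than with dTAG-13 alone, or 16.1% and 64.5%, beside 17.5% and 29.3%. Both comparisons use the same dTAG-13 libraries. The median log2 difference over the members was 0.309 in the first and -0.252 in the second, beside 0.138 and -0.043 over all tested genes.

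Col11a1 measured 27.6, 28.3 and 27.4 TPM in DMSO, then 49.6, 47.7 and 55.6 with dTAG-13 and 29.3, 29.4 and 29.4 with Dox added. Col5a1 measured 26.8, 30.2 and 29.2, then 54.0, 49.1 and 54.4, then 30.8, 30.5 and 31.3 TPM. In these 2 genes the dTAG-13 libraries stood above both other groups, with log2 differences of 0.86 (SE 0.056, adjusted p = 2.84e-07) for Col11a1 and 0.86 (SE 0.057, adjusted p = 3.3e-07) for Col5a1 against DMSO. Against dTAG-13 alone the values with Dox were -0.78 (SE 0.056, adjusted p = 6.71e-07) and -0.76 (SE 0.057, adjusted p = 1.06e-06).

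Col4a1 measured 152, 167 and 167 TPM in DMSO, then 205, 184 and 197 with dTAG-13 and 169, 166 and 169 with Dox added, and Col4a2 106, 119.5 and 117, then 149, 134 and 141, then 118, 118 and 119 TPM. Lamb1 measured 94.8, 104 and 103 TPM in DMSO, then 132, 120.3 and 131 with dTAG-13 and 100.5, 103 and 104 with Dox added. Lamc1 measured 90.9, 101 and 101 TPM, then 114, 108 and 116, then 102, 102 and 105 TPM. In all 4 genes the dTAG-13 libraries were above the DMSO and the Dox libraries. The log2 differences with dTAG-13 were 0.27, 0.31, 0.34 and 0.20, and with Dox added they were -0.22, -0.25, -0.31 and -0.12 against dTAG-13 alone, the last with adjusted p = 0.0647.

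Some genes went the other way. Col9a2, a chain of type IX collagen, measured 3.34, 3.34 and 3.26 TPM in DMSO, then 1.60, 1.26 and 1.77 with dTAG-13 and 3.30, 3.50 and 3.59 with Dox added (log2 -0.91, SE 0.107, adjusted p = 2.62e-05, and 0.96, SE 0.107, adjusted p = 2.3e-05). Col3a1 and Col1a2 were also lower with dTAG-13 (log2 -0.57 and -0.33) and higher with Dox added (0.61 and 0.40). Fibroblast markers were summed at 1485 to 1578 TPM in DMSO, then 2249 to 2470 with dTAG-13 and 1568 to 1614 with Dox added. Of 13 tested, 1 was called higher with dTAG-13, beside 2.38% of all tested genes. Of 20 pluripotency markers 13 fell with dTAG-13 and 13 rose with Dox added, beside 1.44% and 1.49% of all tested genes. The part of both marker lists in these differences was not tested.

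The effect of 24 h of dTAG-13 in the shERV line was set against that in the time course line by an interaction term in limma over 17653 genes. It differed by more than 2-fold for 5 of 35 tested genes, 14.3%, beside 8.72% of all tested genes (2.11% higher, 6.61% lower). The effect was lower in the shERV line for Col9a2 (log2 -1.69, SE 0.149, adjusted p = 3.78e-06), Col9a3 (-1.39, SE 0.159, adjusted p = 2.19e-05), Col1a2 (-1.31, SE 0.129, adjusted p = 7.58e-06) and Col11a1 (-1.16, SE 0.087, adjusted p = 1.54e-06, and -0.99 with a pseudocount of 1). It was higher for Col6a5 (1.99, SE 0.195, adjusted p = 7.78e-06), which measured 0.542, 0.800 and 0.552 TPM in shERV DMSO and 1.11, 1.46 and 1.42 TPM with dTAG-13. Col1a2 measured 2.93, 2.42 and 2.34 TPM in time course DMSO and 5.62, 5.26 and 5.81 TPM at 24 h, and 21.8, 24.1 and 24.8 TPM in shERV DMSO and 19.0, 16.9 and 20.3 TPM with dTAG-13.

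The starting levels of the lines differed. In DMSO Col11a1 averaged 27.8 TPM in the shERV line and 2.20 in the time course line, Col1a1 72.4 and 8.16, Col4a1 162 and 50.8 and Col8a1 12.9 and 0.684, while Col18a1 averaged 143 and 304 TPM. Library kind, line and the feeder and Dox entries of the labels differ between these groups and cannot be told apart. No test was therefore made between their levels. Fibroblast markers summed to 1485 to 1578 TPM in shERV DMSO and 518.8 to 532.5 TPM in time course DMSO. Pluripotency markers summed to 2966 to 3395 and 5680 to 6123 TPM, and the part of these markers was not tested.

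**Figure D4:**
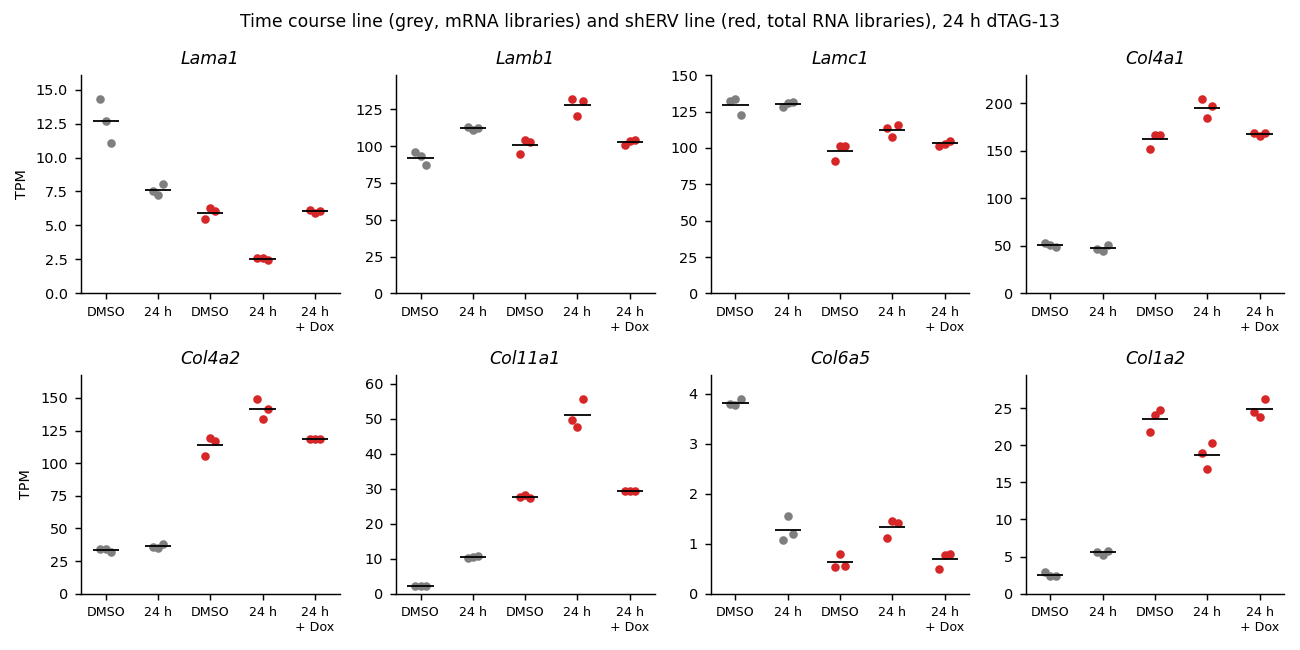
TPM of 8 genes with DMSO or 24 h of dTAG-13 in the time course line (grey, mRNA libraries) and in DMSO, with dTAG-13 and with dTAG-13 and Dox in the shERV line (red, total RNA libraries), 1 point per library with a bar at the mean, axes from 0. In the shERV line Lama1 is low and Col4a1, Col4a2, Lamb1, Lamc1 and Col11a1 are high with dTAG-13 alone, and levels of grey and red points were not tested against each other.

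The untagged parental mESCs differed from the tagged line in DMSO in 19 of 38 tested genes, 9 higher and 10 lower, or 50%, beside 11.4% of all tested genes (2.25% higher and 9.15% lower). With centred libraries 15 were called, 10 higher and 5 lower, or 39.5%, beside 10.2% of all tested genes (3.57% higher, 6.65% lower). In this fit, which includes NPCs, Col6a3 and Col8a1 reached 1 TPM in parental libraries alone and Lamb3 in the tagged line alone. The filter admitted these genes only through the group where they were high. The 4 genes farthest above the tagged line were type I, III and VI collagen chains. Col1a2 measured 23.4, 23.9 and 23.3 TPM against 2.93, 2.42 and 2.34 (7.87-fold, log2 2.98, SE 0.157, adjusted p = 2.56e-07), Col3a1 7.33, 7.67 and 7.57 against 0.524, 0.503 and 0.589 TPM (7.73-fold), Col6a3 3.31, 3.40 and 3.36 against 0.127, 0.0930 and 0.0962 TPM (6.37-fold) and Col1a1 36.8, 36.9 and 34.2 against 8.58, 7.85 and 8.06 TPM (4.21-fold). None of these groups overlapped. Col6a1, Col5a2, Col8a1, Col12a1 and Col6a2 were 3.95-fold, 3.51-fold, 2.92-fold, 2.76-fold and 2.30-fold higher.

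Among the genes lower in the parental line were Col2a1, the cartilage fibril collagen, at 1.78, 2.20 and 1.96 against 10.4, 10.0 and 9.23 TPM (4.19-fold), Col7a1, which anchors the epidermal basement membrane (3.65-fold), Col6a5 (2.73-fold), Lama5 (2.12-fold), Col27a1 and Lamb3 (both 2.06-fold) and Col11a1 (2.00-fold). With centred libraries Lama5, Col27a1, Lamb3 and Col11a1 were under 2-fold (-0.89, -0.85, -0.85 and -0.81). Col4a1 measured 23.2, 23.6 and 23.1 TPM (2.16-fold lower, log2 -1.11, SE 0.035, adjusted p = 1.2e-08, and -0.92 with centred libraries) and Col4a2 12.9, 12.5 and 12.6 TPM (2.57-fold lower, log2 -1.36, SE 0.040, adjusted p = 6.67e-09). Lama1 measured 18.1, 18.6 and 18.3 TPM (log2 0.52, SE 0.079, adjusted p = 0.000295), Lamb1 59.6, 56.8 and 56.6 TPM (log2 -0.67, SE 0.041, adjusted p = 7.26e-07) and Lamc1 134, 137 and 136 TPM (log2 0.07, SE 0.037, adjusted p = 0.125). Parental mESCs had 9 of 17 tested fibroblast markers higher and 1 lower, beside 2.25% and 9.15% of all tested genes, with Mmp3 at 2.49 TPM and Ccl2 at 2.61 TPM against 0, Fbln2 at 28.0 against 2.73 TPM and Postn at 6.44 against 0.199 TPM, and a summed level of 287.9 to 294 TPM against 518.8 to 532.5 TPM, since Tagln was lower at 39.3 against 300 TPM. The methods describe removal of feeders before RNA-seq, and the part of these markers in the collagen differences was not tested.

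NPCs had another set of chains. 29 of 38 tested genes differed from the tagged mESCs in DMSO, 14 higher and 15 lower, or 76.3%, beside 46.6% of all tested genes (25.9% higher, 20.7% lower). With centred libraries 30 were called, 12 higher and 18 lower, or 78.9%, beside 47% of all tested genes (18.9% higher, 28.1% lower). Of the genes called higher, Col11a2, Col14a1, Col22a1, Col25a1 and Col4a6 reached 1 TPM in NPC libraries alone. Of those called lower, Lamb3 reached it in the tagged line alone. The filter admitted these genes only through the group where they were high. All 11 tested neural progenitor markers were higher in NPCs and 18 of 20 pluripotency markers lower. Lama5, the most abundant alpha chain of the mESCs, measured 3.90, 3.94 and 4.09 TPM against 102, 98.9 and 103 (22.8-fold lower, log2 -4.51, SE 0.037, adjusted p = 2.62e-13). Col18a1 at 28.9, 33.1 and 31.3 TPM was 9.66-fold lower, and Col6a5 at 0.0250, 0 and 0.0156 TPM 8.42-fold.

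Lama1 stayed near its mESC level in NPCs, at 16.4, 15.8 and 16.9 TPM (log2 0.37, SE 0.079, adjusted p = 0.00159, and -0.031 with centred libraries). Lamb1 at 24.7, 23.3 and 24.0 TPM was 3.78-fold lower and Lamc1 at 43.9, 41.5 and 42.9 TPM 3.00-fold lower, while Lamb2 at 52.2, 53.1 and 52.3 TPM was 3.10-fold higher. Col4a1 at 30.8, 31.4 and 32.2 TPM (log2 -0.68, SE 0.035, adjusted p = 3.72e-08) and Col4a2 at 21.5, 21.3 and 21.3 TPM (log2 -0.63, SE 0.040, adjusted p = 1.63e-07) were lower by less than 2-fold, and by more than 2-fold once libraries were centred (-1.08 and -1.03).

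Higher in NPCs were Col12a1, at 32.1, 31.6 and 32.7 TPM against 1.60, 1.70 and 1.52 (15.5-fold, log2 3.95, SE 0.054, adjusted p = 4.39e-12), Col11a2, at 14.2, 12.9 and 13.9 against 0.460, 0.330 and 0.648 TPM (14.6-fold), Col4a5, at 13.6, 15.0 and 14.8 TPM (8.10-fold), and Col11a1, at 17.5, 16.5 and 17.6 TPM (6.57-fold). In all 4 genes the groups were far apart. Col4a6, Col5a2, Col25a1 and Col3a1 were 5.02-fold, 4.56-fold, 4.38-fold and 4.26-fold higher. Col4a5 made up 20.6% ± 0.726 (SD, n = 3) of the type IV TPM in NPCs.

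The share of each alpha chain in the summed alpha TPM shows the laminin make-up of each group. Lama5 made up 87.4% ± 1.39 (SD, n = 3) in DMSO, then 95.0% ± 0.230 at 24 h, 95.8% ± 0.174 at 96 h, 90.1% ± 0.0643 in shERV DMSO, 95.4% ± 0.136 with dTAG-13 and 90.1% ± 0.447 with Dox added. Lama1 was most of the rest, at 10.9% ± 1.30 in DMSO, then 4.02% ± 0.310 at 24 h and 2.63% ± 0.0393 at 96 h. Parental mESCs had 26.8% ± 0.859 Lama1 and 69.6% ± 1.20 Lama5, and NPCs 78.5% ± 0.630 Lama1 and 19.0% ± 0.329 Lama5, so that NPCs were the 1 group with more Lama1 than Lama5. Lamb2 made up 68.5% ± 0.778 of the beta TPM in NPCs and 15.1% ± 1.38 in mESCs in DMSO.

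**Figure D5:**
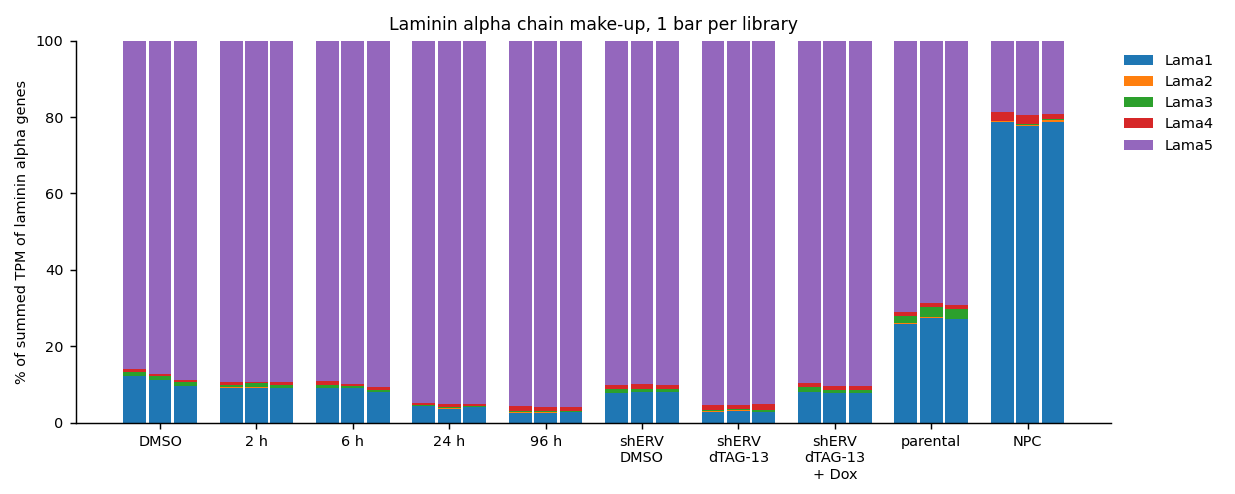
Share of Lama1 to Lama5 in the summed TPM of the laminin alpha genes, in percent, with 1 stacked bar per library and 3 libraries per group. Lama5 fills 87.4% on average in DMSO and 95.8% at 96 h, and Lama1 fills 78.5% in NPCs.

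Promoter sequences were looked at for the genes with the largest rise and fall and for Lama5, whose start carried H3K27Ac in every library. Of the 55 genes 40 had an entry in the RefSeq promoter table (GRCm38.p6), which runs from 250 bases before to 50 bases after a start, and 34 of these starts lay within 250 bases of the StringTie start. The 250 bases upstream of each start are printed 5′ to 3′ in the gene's direction, in lower case, with motif matches in capitals. The motifs searched were the CCAAT box, which NFY binds and which reads ATTGG on the other strand, the Sp factor box GGGCGG, which reads CCGCCC on the other strand, and the TATA box letters TATAAA, which have no match in these windows.
Col11a1, chr3:114030290-114030539, plus strand: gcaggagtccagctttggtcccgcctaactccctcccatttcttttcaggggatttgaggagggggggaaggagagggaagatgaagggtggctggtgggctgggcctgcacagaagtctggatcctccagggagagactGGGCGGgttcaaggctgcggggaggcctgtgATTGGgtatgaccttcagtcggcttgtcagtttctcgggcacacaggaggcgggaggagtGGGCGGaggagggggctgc
Lama5, chr2:180225860-180226109, minus strand: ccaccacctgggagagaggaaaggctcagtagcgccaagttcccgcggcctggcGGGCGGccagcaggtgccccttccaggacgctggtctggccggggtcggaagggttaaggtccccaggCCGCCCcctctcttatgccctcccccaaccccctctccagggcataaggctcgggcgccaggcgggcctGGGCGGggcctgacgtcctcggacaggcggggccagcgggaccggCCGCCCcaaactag
Col6a5, chr9:105960644-105960893, minus strand: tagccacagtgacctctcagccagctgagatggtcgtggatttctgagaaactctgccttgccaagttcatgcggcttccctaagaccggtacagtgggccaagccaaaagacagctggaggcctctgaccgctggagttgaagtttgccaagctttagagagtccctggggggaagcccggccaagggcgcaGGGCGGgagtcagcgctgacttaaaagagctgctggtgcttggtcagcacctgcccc

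The window of Col11a1 holds 3 matches and that of Lama5 holds 4, against 1 in that of Col6a5. Over both strands of the 300 base windows, GGGCGG was found in 62.5% of the 40 genes, beside 42.8% of all 20482 promoters, CCAAT in 32.5% beside 38.2%, and TATAAA in 12.5% beside 13.2%. The median G+C content was 59.65% beside 55.0%, and its part in the GGGCGG count was not tested. A match is a match of letters and no evidence of binding.

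Chromatin was profiled without and with 24 h of dTAG-13. So that libraries with different numbers of peaks could be set side by side, the same number of peaks, those with the highest fold enrichment, was taken from each library of an antibody, and a gene counted as marked with a peak within 1 kb of its start. H3K27Ac, a mark of active promoters and enhancers, lay at 5, 6 and 5 of the 55 starts in DMSO and at 4, 6 and 1 with dTAG-13, between 20.7% and 21.8% of all genes in DMSO and 17.0%, 22.0% and 12.4% with dTAG-13. The groups overlapped (mean difference -1.67, two-sided exact permutation p = 0.5, with 0.1 the smallest possible). Lama5 had a peak in all 6 libraries, with a fold enrichment of 8.09, 7.99 and 11.4 in DMSO and 4.14, 9.38 and 3.62 with dTAG-13, and 48 of the 55 starts had none in any.

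MED23, a subunit of the Mediator coactivator, lay at 11 and 13 of the 55 starts in DMSO and at 4 and 5 with dTAG-13, while the share of all genes went from 14.6% and 14.9% to 9.34% and 9.3%. The groups did not overlap (difference -7.5, exact permutation p = 0.33, the smallest that 2 against 2 allows). Marked in all 4 libraries were Col1a2, with a fold enrichment of 22.2 and 23.8 in DMSO and 4.42 and 4.11 with dTAG-13, and the shared start of Col4a1 and Col4a2, where 1 peak counts for both genes, with 21.5 and 24.5 in DMSO and 3.42 and 4.67 with dTAG-13. Among the peaks taken, Col12a1, Col18a1, Col2a1, Lama5 and Lamb2 had a peak in both DMSO libraries and in neither dTAG-13 library. Among all deposited peaks MED23 lay at 29 and 25 starts in DMSO and at 5 and 5 with dTAG-13. The shares of all genes were then 32.9% and 32.9%, and 10.3% and 9.3%. Lama1 and Lamc1 then also had a peak in both DMSO libraries and in neither dTAG-13 library. The number of deposited MED23 peaks was 63045 and 58925 in DMSO and 15335 and 14551 with dTAG-13, and the part of this in the counts was not tested.

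RNAPII lay at 2 starts in each DMSO library, those of Col18a1 (10.6 and 8.78) and Lama5 (10.8 and 9.81), and at 1 with dTAG-13, Lama5 (3.33) in replicate 1 and Col18a1 (3.97) in replicate 2, beside 13.7% and 13.7% of all genes in DMSO and 11.1% and 10.7% with dTAG-13 (exact permutation p = 0.33, the smallest possible). Among all deposited peaks RNAPII lay at 7 and 5 starts in DMSO and at 1 and 1 with dTAG-13. The shares of all genes were then 20.9% and 20.9%, and 11.7% and 10.7%. Lamb1 (4.73 and 4.36) and Lamc1 (5.80 and 6.24) then had a peak in both DMSO libraries. The deposited RNAPII peaks numbered 19853 and 19194 in DMSO and 8182 and 7689 with dTAG-13, and their part in the counts was not tested. H3K9me3, the mark laid down with TRIM28 at silenced ERVs, lay at none of the 55 starts in any of the 6 libraries, beside 1.01% to 1.61% of all genes. Among all deposited peaks it lay at 0 or 1 start in each library. None of the starts of Col11a1, Col26a1 or Col6a5 had a peak of any of the 4 antibodies in these libraries.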

How the data were processed

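TT-SLAM-seq, RNA-seq and ChIP-seq libraries were grouped by their labels, and the genes and lists described here were chosen with earlier results of these data known. For TT-SLAM-seq the authors deposited FPKM of reads with T>C conversions, mapped with SLAM-DUNK, counted with htseq-count over GENCODE genes and scaled without a spike-in. For RNA-seq the authors deposited StringTie (2.0.6) tables after cutadapt (2.4) and STAR (2.7.5a) on mm10, with TPM, FPKM and coverage per gene, of which TPM was used. The ChIP-seq peaks were called per library by the authors with MACS2 after BWA, SAMtools and GATK (4.1.4.1), and the deposited columns hold a score, fold enrichment, −log10 p and q values and the summit, of which fold enrichment was used.

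Genes with at least 0.5 FPKM or 1 TPM in at least 3 libraries were tested on log2(value + 0.5) with limma 3.58.1 in R 4.3.3 (trended empirical Bayes, Benjamini-Hochberg over all tested genes). Libraries of any group counted towards the filter, so a gene low in all but 1 group was tested only through its high group. The time course, the shERV groups, and the parental, tagged and NPC groups were each fitted in 1 model, and the interaction in 1 model of 4 groups. Whole reads were recovered from the FPKM (100% of low values whole within 0.1) and tested with limma voom. Both fits were tested on simulated data. Replicates are separate samples by their labels, and the study calls those of TT-SLAM-seq and RNA-seq biological. Its methods also mention technical replicates of TT-SLAM-seq, merged for coverage tracks. The labels do not say what was kept separate, so p-values measure the spread between these samples. Lama1, Lamb1, Lamc1, Col4a1 and Col4a2 were named throughout, with up to 4 genes of the largest rise and 4 of the largest fall per comparison and other changed genes by fold. Lama5, Col18a1 and other unchanged genes with values were chosen after their values were seen. 1 tested gene is included in the counts and sums but is not reported here. No column of per-sample values was left unused for want of a sample, and alternatives were another pseudocount, filter, scaling, a replicate block and leaving out each library.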

Additional observations from a re-analysis of the deposited data

Results flagged for a closer look

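The effect of 24 h of dTAG-13 in the shERV line differed from that in the time course line, by the interaction term in limma with an adjusted p below 0.05 and a difference of more than 2-fold, for 5 genes, 3 of them fibril-associated or minor cartilage collagens. Library kind differs between the 2 experiments (total RNA in the shERV line, polyadenylated RNA in the time course). So do the line and the feeder and Dox entries of the labels, and these cannot be told apart.

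For Col9a2 the difference of effects was -1.69 on the log2 scale: the time course went from 5.68, 5.73 and 5.70 TPM in DMSO to 11.1, 8.88 and 10.6 TPM at 24 h, and the shERV line from 3.34, 3.34 and 3.26 to 1.60, 1.26 and 1.77 TPM. For Col9a3 it was -1.39, with 3.19, 2.77 and 3.21 TPM going to 8.86, 9.56 and 8.92 TPM in the time course and 1.78, 1.43 and 1.21 TPM beside 1.51, 1.63 and 1.43 TPM in the shERV line. For Col1a2 it was -1.31 and for Col11a1 -1.16, with means of 23.6 and 27.8 TPM in shERV DMSO and 2.56 and 2.20 TPM in time course DMSO. For Col6a5 it was 1.99, since its TPM was lower at 24 h in every library of the time course and higher in every dTAG-13 library of the shERV line. With genes averaging at least 5 TPM, 3 of the 5 were left.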

How the results depend on the processing

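Of 1654 values of single genes under all alternatives, 1577 stayed on their side of the threshold in the same direction, 68 were no longer past it, 2 were newly past it and 7 changed direction. None of those 7 reached 2-fold. With centred libraries the 24 h difference turned to -0.007 for Lamb1, -0.283 for Lamc1 and -0.177 for Col4a2. It turned to -0.051 for Lamc1 in TT-SLAM-seq, and the NPC difference of Lama1 turned to -0.031. With libraries left out, the 24 h value of Lamc1 ran from -0.034 (without DMSO replicate 3) to 0.03. It was -0.002 without 24 h replicate 3. The sign of Lamb1, Lamc1 and Col4a2 at 24 h thus depended on the scaling. The cause was not tested. On recovered reads the nascent counts of 0 became 4, 1 and 11 at 2 h, 6 h and 24 h. The count at 24 h of 8 became 5 with a pseudocount of 1, 3 with genes averaging at least 5 TPM and 4 centred. That mean filter, which tests fewer genes, left 15 at 96 h, 10 in the parental line, 13 in NPCs, 3 in the interaction and 0 in both shERV comparisons. Those shERV counts of 1 became 3 and 3 with a pseudocount of 0.1 and 2 and 2 centred, and with a pseudocount of 1 that of dTAG-13 against DMSO became 0.

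Leaving out 1 library gave 7 to 8 genes at 24 h, 21 to 25 at 96 h, 15 to 18 in the parental line, 23 to 29 in NPCs, 5 in the interaction, 1 in shERV dTAG-13 against DMSO, 1 to 2 with Dox added (2 without dTAG-13 replicate 3), and 0 for FPKM at each time. On reads, in settings chosen after seeing the data, it gave 1 to 4 at 2 h, 1 to 3 at 6 h (2 without DMSO replicate 1 or 6 h replicate 2, 3 without DMSO replicate 3) and 11 to 14 at 24 h, and centring gave 1 at 2 h. Same-numbered libraries did not deviate together in every pair of any 2 groups, so the numbers name libraries only. With the replicate block the counts were the same in every comparison, other than 2 in place of 1 at 6 h on reads. Depth limits the low genes: in TT-SLAM-seq Col6a2 had 3 to 6 reads per DMSO library.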
